A study of Homo sapiens with 6 samples.

Results

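The replication-dependent histone genes were the 76 gene symbols of the count table that follow the cluster naming scheme (HIST1 to HIST4, then H1, H2A, H2B, H3 or H4 and a final letter), out of 56303 rows. A further 13 rows with PS in the symbol, a naming mark for pseudogenes, were left out of the 89 that matched, by name alone. The members were selected by symbol and no measured value was used. By family, 6 encoded the linker histone H1, 17 H2A, 23 H2B, 15 H3 and 15 H4. Of the 76, 70 had a coding sequence and 6 were annotated as pseudogenes (HIST2H2BA, HIST2H3DP1, HIST2H2BB, HIST2H2BD, HIST2H2BC and HIST3H2BA).

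The study sequenced mRNA from SW480, an established human colon adenocarcinoma line, to ask what changes when RBM39, an RNA-binding splicing factor, is reduced. There were 3 libraries of cells carrying a nonsilencing hairpin (shCtrl, genotype given as WT) and 3 of cells carrying a hairpin against RBM39 (shRBM39, genotype given as RBM39 knockdown). Both groups were infected with lentivirus and selected with puromycin, and the methods call the resulting lines stable and clonal. The libraries of a group are described as independent replicate experiments. How many lines were made with each hairpin is not given in the sources used here, so the p-values measure the spread between experiments and not between lines. Below, 3 values of a group are given in the order of replicates 1, 2 and 3.

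Core histones H2A, H2B, H3 and H4 form the particle around which DNA is wound, and linker histones of the H1 family bind the DNA between particles. Replication-dependent histone genes are transcribed mainly in S phase, when newly copied DNA has to be packaged, and their mRNAs normally end in a conserved stem-loop bound by SLBP in place of a poly(A) tail. Many of these genes also have longer, polyadenylated transcripts that run past the stem-loop, and these have been described in differentiated and tumour cells. The library kit selects mRNA. Its method of selection is not given in the sources used here, so how much stem-loop-ended mRNA it kept is not known.

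Every one of the 70 coding members held the stem-loop core, 16 bases searched for by its degenerate histone consensus on the coding strand within 150 bases after the stop codon. The core began 22 to 67 bases after the stop codon. Of 19917 coding genes searched in the same way, 72 held it, which is 0.362%, and the others were H2AX and H3-7. Forms of the core followed the family: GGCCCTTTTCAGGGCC was found in 10 members, all of them H4 genes, and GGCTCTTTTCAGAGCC in 40. The stem-loops of 8 members that the results turn on are printed because they mark the end of the classical histone mRNA. They are read from GRCh38 on the coding strand, as DNA, with the core in capitals and 5 bases on each side.
HIST1H1C (chr6:26055739-26055764, minus strand): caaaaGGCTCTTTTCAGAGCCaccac
HIST3H2A (chr1:228457364-228457389, minus strand): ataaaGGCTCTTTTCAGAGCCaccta
HIST1H2AC (chr6:26124664-26124689, plus strand): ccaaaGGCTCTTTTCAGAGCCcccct
HIST1H2BK (chr6:27146361-27146386, minus strand): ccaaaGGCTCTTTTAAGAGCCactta
HIST1H2BH (chr6:26252050-26252075, plus strand): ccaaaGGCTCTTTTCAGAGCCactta
HIST2H4A (chr1:149833027-149833052, plus strand): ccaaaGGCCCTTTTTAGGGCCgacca
HIST1H2AE (chr6:26217412-26217437, plus strand): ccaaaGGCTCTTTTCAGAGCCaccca
HIST1H2AM (chr6:27892699-27892724, minus strand): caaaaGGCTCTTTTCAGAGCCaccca

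Promoter motifs were counted in the same way. Promoter sequences of 65 members were found in the RefSeq set (GRCh38.p14), each covering 250 bases before to 50 bases after the transcription start. Searched on both strands, CCAAT was present in 84.6% of them, against 34.6% of all 35116 promoters in the set. TATAAA was present in 66.2% against 11.5%, and the octamer ATTTGCAT, the site known to be read by OCT1 in H2B promoters, in 40% against 1.77%. The octamer lay in 14 of 18 H2B promoters, 11 of 16 H2A promoters and 1 of 12 H3 promoters, and in 0 of 6 H1 and 0 of 13 H4 promoters. Neighbouring H2A and H2B genes can start close together, as do HIST1H2BC and HIST1H2AC, 218 bases apart. A window can then take in the octamer of the neighbour, so these counts do not assign an octamer to each gene. HIST1H2AE was counted as holding ATTTGCAT and TATAAA, but its 120 bases printed below hold neither. The promoters of 6 members are printed to show these letters. Each is the 120 bases just before the RefSeq start on the coding strand, with CCAAT (or ATTGG, the same site on the other strand), TATAAA and ATTTGCAT in capitals. The motifs do not overlap each other in these windows.
HIST1H2BK (chr6:27146859-27146978, minus strand): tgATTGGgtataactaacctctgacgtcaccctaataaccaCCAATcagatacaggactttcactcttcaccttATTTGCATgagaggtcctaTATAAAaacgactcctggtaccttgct
HIST2H2BE (chr1:149886683-149886802, minus strand): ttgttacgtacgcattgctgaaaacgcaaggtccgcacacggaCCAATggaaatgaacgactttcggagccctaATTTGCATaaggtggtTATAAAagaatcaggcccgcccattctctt
HIST1H2BH (chr6:26251494-26251613, plus strand): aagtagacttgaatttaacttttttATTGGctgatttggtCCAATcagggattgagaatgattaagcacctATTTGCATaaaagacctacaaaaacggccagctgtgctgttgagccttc
HIST3H2A (chr1:228457874-228457993, minus strand): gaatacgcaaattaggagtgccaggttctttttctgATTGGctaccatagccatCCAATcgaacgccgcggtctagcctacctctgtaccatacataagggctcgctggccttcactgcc
HIST1H2AE (chr6:26216801-26216920, plus strand): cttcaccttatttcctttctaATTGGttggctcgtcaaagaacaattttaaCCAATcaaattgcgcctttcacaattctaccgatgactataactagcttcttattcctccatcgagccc
HIST1H1C (chr6:26056471-26056590, minus strand): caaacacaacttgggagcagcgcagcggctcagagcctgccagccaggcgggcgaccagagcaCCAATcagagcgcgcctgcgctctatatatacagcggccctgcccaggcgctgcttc

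Libraries held 18042924 to 20428901 counts. RBM39 itself was at 441, 448 and 435 CPM (read counts scaled to a common library size) in shCtrl and at 266, 276 and 292 CPM in shRBM39, a log2 fold change of -0.67 ± 0.04 (SE, adjusted p = 1.24e-16). All 7 epithelial and intestinal markers checked were above 1 CPM in every library. CDX2, the lowest of them, fell (21.7 to 4.95 CPM, log2 fold change -2.13), as did CDH1 (-0.39) and VIL1 (-0.09), while KRT8 (0.43) and KRT18 (0.24) rose. Of the leukocyte markers 0 of 4, of the endothelial markers 1 of 3 (PECAM1) and of the fibroblast markers 1 of 3 (COL1A1) were above 1 CPM in every library. Summed endothelial markers ran from 3.47 to 4.58 CPM in shCtrl and from 6.45 to 7.96 CPM in shRBM39, fibroblast markers from 5.65 to 5.66 CPM and from 8.31 to 10.7 CPM, and epithelial markers from 11721 to 12549 CPM and from 14774 to 15347 CPM. The defining leukocyte marker PTPRC had 0 counts in all libraries. The part of these shifts in the histone results was not tested.

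Histone cluster mRNA made up a smaller part of the shRBM39 libraries. The 76 members together took 4509, 4658 and 4437 counts in shCtrl, which is 0.0231%, 0.0230% and 0.0228% of each library, and 2479, 2406 and 2824 counts in shRBM39, or 0.0121%, 0.0133% and 0.0140%. Summed over members, the level averaged 221 CPM in shCtrl (SD 2.85, n = 3) and 137 CPM in shRBM39 (SD 9.86, n = 3), a change of -37.7%. The groups did not overlap, and all 3 shRBM39 libraries lay below the lowest shCtrl library. Few genes carried this sum: HIST3H2A, HIST1H1C and HIST1H2AC held 55.3% of all member counts, and the other 73 members together changed by -29.5%. In these bulk libraries, fewer cells with histone mRNA and less histone mRNA per cell cannot be told apart. Nor can a change of stem-loop-ended mRNA and one of the longer, polyadenylated transcripts. The sums here and by family below therefore need not follow total histone mRNA in the cells. In the same libraries 23 of 24 S phase genes rose and 0 fell, as described below.

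Of the 76 members, 36 had enough counts to be tested and 18 of them fell, 3 rose and 15 did not pass an adjusted p of 0.05 in edgeR's quasi-likelihood test. The knockdown moved much of the transcriptome, and these counts are read against that background: of 18243 genes tested, 59.1% were called, 29.9% lower and 29.2% higher. With library totals as the scale the split over all genes was 7371 lower and 3775 higher, and that over the members 19 lower and 2 higher. The median log2 fold change was -0.52 over the 36 members and -0.01 over all genes tested. Groups did not overlap in 18 of the 36 members, while this held for 63.3% of all genes tested. Leaving out each library in turn, 12 of the 18 lower calls and 2 of the 3 higher calls (HIST1H3J and HIST1H2AM) were made every time. The plot of levels by family shows each of the 36 in each library.

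**Figure D1:**
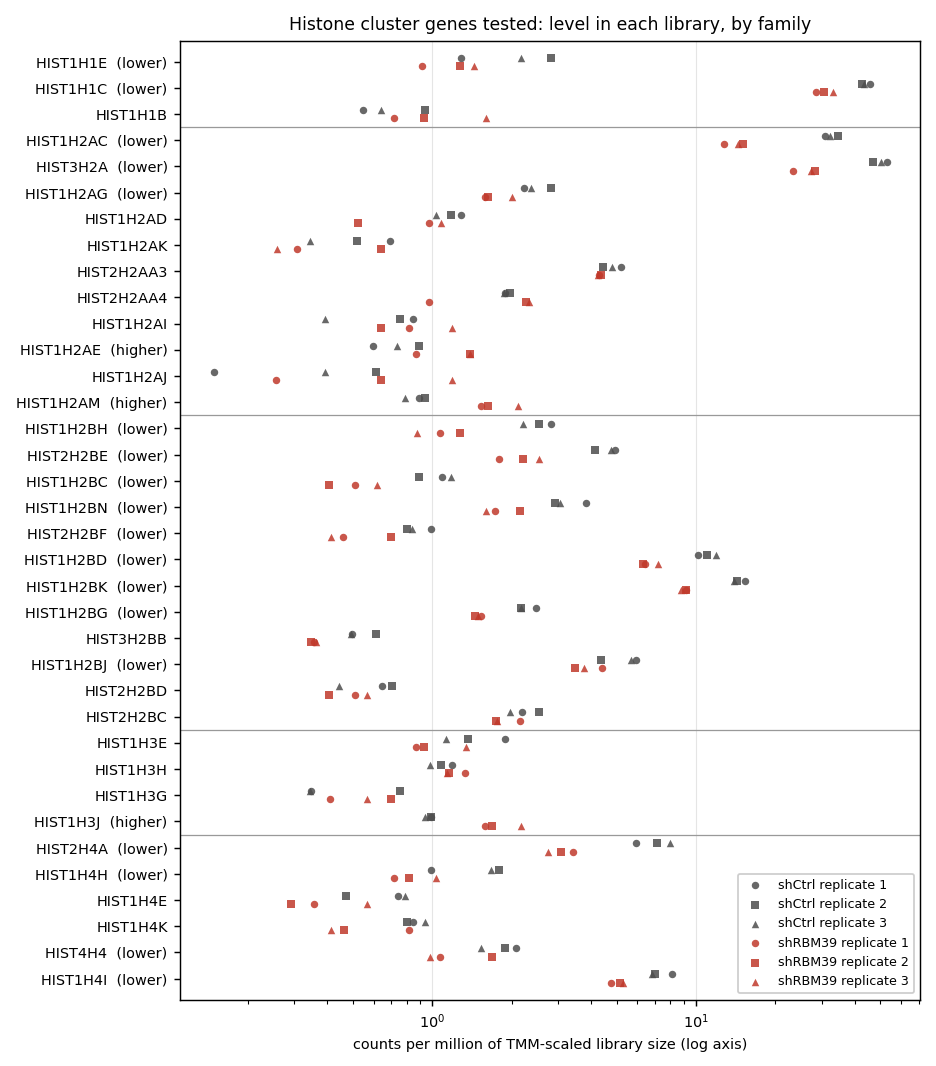
Level of the 36 tested histone cluster genes in each library, in CPM of the TMM-scaled library size on a log axis, grouped by family from H1 (top) to H4 (bottom), with shCtrl in grey, shRBM39 in red and a marker shape for each replicate. Within each library HIST1H1C, HIST1H2AC and HIST3H2A stand to the right of the rest, between 12.8 and 52.8 CPM. In each of these genes all shRBM39 libraries lie below all shCtrl libraries. HIST1H2BK in shCtrl (14.0 to 15.3 CPM) reaches the shRBM39 values of HIST1H2AC.

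Among the cluster genes, H1 mRNA came almost wholly from HIST1H1C (now H1-2, chr6:26055787-26056428, minus strand), the H1 subtype abundant in most cell lines. HIST1H1C was at 45.8, 42.5 and 43.3 CPM in shCtrl and at 28.6, 30.7 and 32.9 CPM in shRBM39, and it fell (log2 fold change -0.51 ± 0.06, adjusted p = 6.84e-10). Per length it was also the most abundant of all members, at 71.2 RPKM in shCtrl and 45.8 RPKM in shRBM39. HIST1H1E, a second somatic H1 gene, was at 1.29, 2.83 and 2.17 CPM and then at 0.919, 1.28 and 1.45 CPM, so that the groups overlapped. Its call as lower (-0.79 ± 0.25, adjusted p = 0.00675) was lost without shCtrl replicate 2 (-0.51) and without shRBM39 replicate 1 (-0.62). HIST1H1B pointed the other way, with 0.546, 0.942 and 0.640 CPM against 0.715, 0.930 and 1.60 CPM, and it was not called (0.60 ± 0.31, adjusted p = 0.0989). Without shCtrl replicate 2 (0.87) or without shRBM39 replicate 1 (0.85) it was called higher. HIST1H1D had too few counts for a test, with 4, 19 and 14 counts against 2, 5 and 6. Summed H1 mRNA was 47.3 ± 0.566 CPM in shCtrl and 33.3 ± 2.99 CPM in shRBM39.

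H2A genes moved in both directions, but the 2 abundant ones fell. HIST3H2A (now H2AC25, chr1:228456979-228457873, minus strand), the H2A gene of the small cluster on the long arm of chromosome 1, was at 52.8, 46.9 and 50.3 CPM in shCtrl and at 23.3, 28.2 and 27.2 CPM in shRBM39 (-0.93 ± 0.06, adjusted p = 2.22e-15). HIST1H2AC (now H2AC6, chr6:26124145-26139116, plus strand) was at 30.9, 34.5 and 32.3 CPM and then at 12.8, 15.1 and 14.4 CPM (-1.21 ± 0.07, adjusted p = 8.06e-17). In neither did the groups come near each other. HIST1H2AG was at 2.23, 2.83 and 2.36 CPM against 1.58, 1.63 and 2.01 CPM and was called lower (-0.51 ± 0.19, adjusted p = 0.0231). This call did not stand without shCtrl replicate 2 (-0.40), shRBM39 replicate 1 (-0.43) or shRBM39 replicate 2 (-0.46).

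HIST1H2AM (chr6:27892757-27893149, minus strand) rose, from 0.893, 0.942 and 0.787 CPM in shCtrl to 1.53, 1.63 and 2.12 CPM in shRBM39 (1.004 ± 0.24, adjusted p = 0.000619). HIST1H2AE (chr6:26216975-26217483, plus strand) was at 0.595, 0.895 and 0.738 CPM against 0.868, 1.39 and 1.39 CPM and was called higher (0.70 ± 0.28, adjusted p = 0.0343). The groups overlapped by 1 library each, and the call was lost without shCtrl replicate 1 (0.57), shCtrl replicate 3 (0.69), shRBM39 replicate 2 (0.60) or shRBM39 replicate 3 (0.58). The twin genes HIST2H2AA3 and HIST2H2AA4, near-identical copies on chromosome 1, were not called. HIST2H2AA3 was at 5.21, 4.43 and 4.82 CPM against 4.29, 4.36 and 4.23 CPM (-0.17 ± 0.13, adjusted p = 0.273), with groups that did not overlap. HIST2H2AA4 was at 1.89, 1.98 and 1.87 CPM against 0.970, 2.27 and 2.32 CPM (-0.06 ± 0.23, adjusted p = 0.843). All 50-base windows of HIST2H2AA3 also occur in HIST2H2AA4 (100%), so reads of this pair cannot be told apart by sequence. The other 4 tested H2A genes, HIST1H2AD, HIST1H2AK, HIST1H2AI and HIST1H2AJ, had log2 fold changes from -0.42 to 0.83 and overlapping groups. HIST1H2AJ became a higher call without shCtrl replicate 2 (1.33) or shRBM39 replicate 1 (1.25). It shared 83.7% of its 50-base windows with other members, most of all with HIST1H2AI. Both rows held the same counts in shCtrl replicate 3 (8), shRBM39 replicate 2 (11) and shRBM39 replicate 3 (23), so they may not be separate measurements.

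Of 12 tested H2B genes 9 fell, 0 rose and 3 were not called. Summed H2B mRNA was 50.4 ± 1.85 CPM in shCtrl and 30.9 ± 0.566 CPM in shRBM39, a change of -38.6%. HIST1H2BK (now H2BC12, chr6:27146418-27146798, minus strand), the H2B gene with most counts, was at 15.3, 14.3 and 14.0 CPM in shCtrl and at 9.19, 9.18 and 8.78 CPM in shRBM39 (-0.68 ± 0.08, adjusted p = 1.24e-08). HIST1H2BD was at 10.2, 11.0 and 11.9 CPM against 6.43, 6.27 and 7.18 CPM (-0.73 ± 0.10, adjusted p = 9.07e-08). Both groups were tight, and in each gene the highest shRBM39 library lay well below the lowest shCtrl library.

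HIST1H2BH had the lowest log2 fold change of all members tested. It was at 2.83, 2.54 and 2.21 CPM in shCtrl and at 1.07, 1.28 and 0.878 CPM in shRBM39 (-1.24 ± 0.22, adjusted p = 7.55e-06). HIST2H2BE, the H2B gene known for a long polyadenylated transcript in differentiated cells, was at 4.91, 4.15 and 4.77 CPM against 1.79, 2.21 and 2.53 CPM (-1.08 ± 0.16, adjusted p = 4.44e-07). HIST1H2BC was at 1.09, 0.895 and 1.18 CPM against 0.510, 0.407 and 0.620 CPM (-1.02 ± 0.31, adjusted p = 0.00494). In these 3 genes the shRBM39 libraries did not reach the shCtrl range. HIST1H2BN was at 3.82, 2.92 and 3.05 CPM against 1.74, 2.15 and 1.60 CPM (-0.84 ± 0.18, adjusted p = 0.000163), and HIST1H2BG at 2.48, 2.17 and 2.17 CPM against 1.53, 1.45 and 1.497 CPM (-0.60 ± 0.20, adjusted p = 0.00914). The HIST1H2BG call was lost with DESeq2 (adjusted p = 0.0632). The HIST1H2BN row contains the whole of HIST1H2AK on the other strand, 393 bases, and the strand setting of the counting is not stated.

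The remaining lower H2B calls depended on single libraries. HIST1H2BJ was at 5.90, 4.38 and 5.66 CPM against 4.39, 3.49 and 3.77 CPM (-0.44 ± 0.14, adjusted p = 0.00658) and 1 shRBM39 library lay just above the lowest shCtrl library. Without shCtrl replicate 1 it was not called (-0.36). HIST2H2BF was at 0.992, 0.801 and 0.837 CPM against 0.459, 0.697 and 0.413 CPM (-0.75 ± 0.32, adjusted p = 0.0450). The HIST2H2BF call was lost on leaving out any library except shRBM39 replicate 2, with values from -0.61 to -0.82, and its row overlaps FCGR1A on the other strand by 177 bases. HIST2H2BC, annotated as a pseudogene, was at 2.18, 2.54 and 1.97 CPM against 2.14, 1.74 and 1.76 CPM and was not called (-0.24 ± 0.19, adjusted p = 0.279). HIST2H2BD (-0.26) and HIST3H2BB (-0.58) were not called either.

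The summed level of H3 mRNA overlapped between the groups. It was 6.16 ± 0.868 CPM in shCtrl and 6.28 ± 0.758 CPM in shRBM39, the lowest of the 5 families in both groups. HIST1H3J (chr6:27890382-27893106, minus strand) was the single H3 gene called. It was at 0.992, 0.989 and 0.935 CPM against 1.58, 1.68 and 2.17 CPM (0.90 ± 0.24, adjusted p = 0.00139). This is not a second observation beside HIST1H2AM. The 2 rows share 346 bases on the same strand, and their counts were nearly the same in every library, with 20, 21 and 19 counts of HIST1H3J in shCtrl beside 18, 20 and 16 of HIST1H2AM, and 31, 29 and 42 in shRBM39 beside 30, 28 and 41. The reads of the shared bases cannot be assigned to either gene. HIST1H3E (-0.47), HIST1H3H (0.16) and HIST1H3G (0.18) were not called.

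Of the H4 genes, 4 of 6 tested fell and 0 rose. The summed level was 19.6 ± 0.439 CPM in shCtrl and 11.6 ± 0.158 CPM in shRBM39, a change of -40.8%. HIST2H4A (chr1:149832659-149839767, plus strand) was at 5.90, 7.11 and 7.97 CPM against 3.42, 3.08 and 2.74 CPM (-1.18 ± 0.14, adjusted p = 4.48e-09). HIST1H4I (chr6:27138588-27139881) was at 8.14, 7.02 and 6.79 CPM against 4.75, 5.17 and 5.27 CPM (-0.53 ± 0.12, adjusted p = 0.000179). Neither pair of groups overlapped. All 50-base windows of HIST2H4A occur also in HIST2H4B, which had 18 counts in all libraries together against 605 for HIST2H4A, so the split between these copies is uncertain. The row also overlaps HIST2H3C on the other strand by 173 bases.

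HIST1H4H was at 0.992, 1.79 and 1.67 CPM against 0.715, 0.813 and 1.03 CPM (-0.80 ± 0.27, adjusted p = 0.0114), a call lost without shCtrl replicate 2 (-0.64) or shRBM39 replicate 1 (-0.67). HIST4H4, the single H4 gene on chromosome 12, was at 2.08, 1.88 and 1.53 CPM against 1.07, 1.68 and 0.981 CPM (-0.57 ± 0.24, adjusted p = 0.0360). Its call was lost without shCtrl replicate 1 (-0.47), shCtrl replicate 2 (-0.55), shRBM39 replicate 1 (-0.47) or shRBM39 replicate 3 (-0.42). In both genes 1 library of a group lay inside the range of the other. HIST1H4E (-0.69) and HIST1H4K (-0.59) were not called, and HIST1H4K was called lower without shRBM39 replicate 1 (-0.96). The plot of summed family levels shows the separate groups in H1, H2A, H2B and H4 and the overlapping ones in H3.

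**Figure D2:**
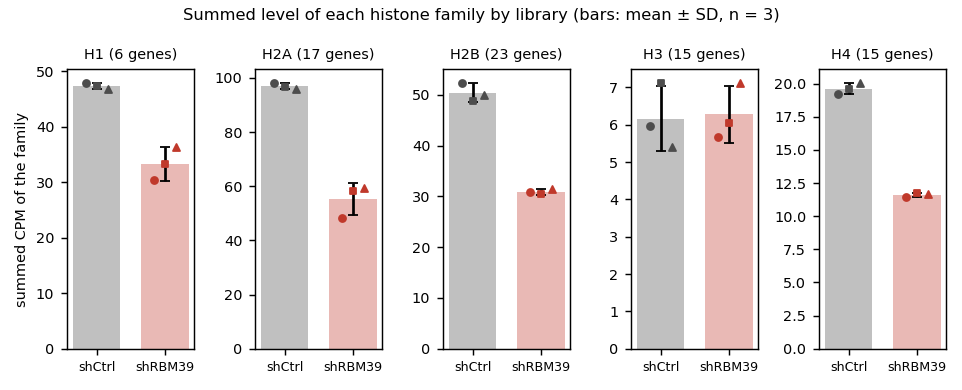
Summed level (CPM) of each histone family in each library, with bars at the mean, error bars of 1 SD (n = 3) and a point for each library, each panel with its own axis from 0. In the H1, H2A, H2B and H4 panels all shRBM39 points lie below all shCtrl points, and in the H3 panel (6.16 against 6.28 CPM) they overlap.

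The other 40 members were not tested, and together they held 2.87% of the member counts. Of these, 6 had 0 counts in all libraries (HIST2H3DP1, HIST3H3, HIST1H2AA, HIST1H2BA, HIST1H4F and HIST1H4G), which allows a level of up to 0.0254 CPM over all 6 libraries pooled, for counting error only. The other 34 had from 1 to 54 counts in all 6 libraries together. Their summed level was 4.66, 7.35 and 5.17 CPM in shCtrl and 3.16, 4.24 and 6.25 CPM in shRBM39, with overlapping groups. HIST2H3C (54 counts), HIST1H1D (50 counts) and HIST1H2BE (49 counts) were the highest of them. Of the 36 tested, 1 (HIST3H2BB) passed the filter through its shCtrl libraries alone and 0 through shRBM39 alone. HIST2H2BF, HIST1H2BC and HIST1H4K passed with 3 shCtrl libraries and 1 shRBM39 library over the cut, and HIST1H2AD with 3 and 2. HIST2H2BD, HIST1H4E and HIST1H2AK had 2 and 1, HIST1H2AI 2 and 3, and HIST1H2AJ and HIST1H3G 1 and 2. Of these, HIST2H2BF and HIST1H2BC were called, both lower.

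Lower calls were also found among members with little shared sequence. Among the 45 members that shared under 10% of their 50-base windows with other members and overlapped no other row, 21 were tested, of which 14 fell and 1 rose (HIST1H2AE), with a median log2 fold change of -0.58. This group was formed after the values had been seen. Whether reads that map to several places were counted is not stated.

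The members that fell were mostly those whose gene model in the count table runs on past the stem-loop. Models were divided after the values had been seen, at 100 exonic bases past the core. In the 25 members with a model beyond that limit, 20 were tested, of which 15 fell and 0 rose, with a median log2 fold change of -0.71 and a summed level of 140 ± 2.45 CPM in shCtrl against 75.4 ± 4.59 CPM in shRBM39. In the 45 members whose model ends at or near the core, 14 were tested, of which 3 fell (HIST1H1C, HIST1H1E and HIST1H2BK) and 3 rose, with a median of -0.11 and a summed level of 77.8 ± 1.91 against 59.6 ± 5.998 CPM. In 37 of these 45 the model stops before the core is complete. The split depends on the annotation. In GENCODE v44, the tested long models HIST1H2BH, HIST1H2AG, HIST1H2BG, HIST1H4I, HIST1H4E and HIST1H3G reach only 5 to 18 bases past the core. Of these, all but HIST1H4E and HIST1H3G fell. The other tested long models pass 100 bases in GENCODE v44 too. The HIST1H2BJ model has 566 bases past the core but does not hold the whole core. The classes were not redrawn with GENCODE v44.

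Without members that overlap another row, 12 of 17 tested long models fell and 0 rose (median -0.60), and 3 of 10 tested short models fell and 1 rose (median -0.11). The difference between the classes was not tested. The classes also differed in median model length, at 1876 bases for the long models and 396 bases for the short ones, and the part of length or count level in the result was not tested. The table gives a single value for each gene, so counts from before and after the stem-loop cannot be told apart. The plots by gene model and by 3′ reach show both classes.

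**Figure D3:**
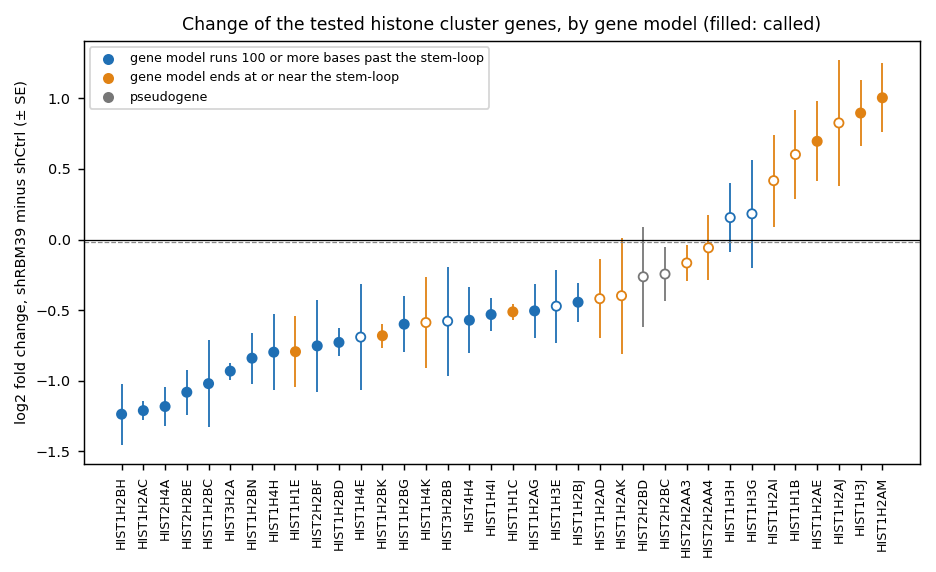
Log2 fold change (shRBM39 minus shCtrl) with its standard error for the 36 tested members in order of size, coloured by whether the gene model of the count table runs 100 or more bases past the stem-loop (blue), ends at or near it (orange) or belongs to a pseudogene (grey), with filled points for called genes and a dashed line at the median of all genes tested (-0.01). The 3 called increases at the right are short models, and the 8 lowest values at the left are long models.

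**Figure D4:**
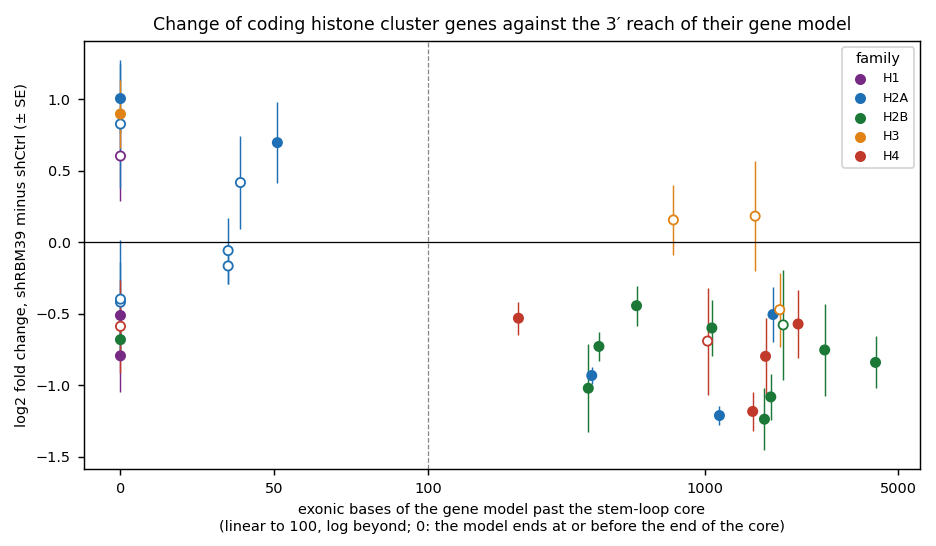
Log2 fold change with its standard error for the 34 tested coding members against the number of exonic bases of the gene model past the stem-loop core, linear up to 100 bases and on a log scale beyond, coloured by family and filled where called. To the right of the dashed line at 100 bases 15 of 20 points are called lower, and to the left 3 are lower and 3 higher.

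Levels were also summed by position. The members lay in stretches on chromosomes 1, 6 and 12. In the largest, chr6:26017085-26285638 with 32 members, the summed level was 104 ± 2.02 CPM in shCtrl and 62.6 ± 5.24 CPM in shRBM39. The 13 members of chr1:149782689-149887916 summed to 23.6 ± 0.646 against 15.8 ± 0.943 CPM, and the 5 members of chr6:27125897-27147515 to 29.9 ± 1.53 against 19.8 ± 0.288 CPM, where all 4 tested members fell. The 16 members of chr6:27807444-27893843 summed to 10.4 ± 0.896 CPM in shCtrl and 11.2 ± 1.45 CPM in shRBM39, with overlapping groups. There, of 9 tested members, HIST1H2AM and HIST1H3J rose, HIST1H2BN fell and 6 were not called, with a median log2 fold change of 0.42. HIST1H2AM and HIST1H3J are not separate observations, as given above. HIST1H2AI (0.42) and HIST1H2AJ (0.83) share much of their sequence, so the median and the sum here rest partly on rows that are not independent. Differences between the stretches were not tested.

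Neighbouring genes were not always called in the same direction. Many H2A and H2B genes face away from each other across a short stretch of DNA, and 11 such pairs had count-table rows starting within 500 bases. HIST1H2BN and HIST1H2AK, whose rows overlap, were not among them. HIST1H2BC and HIST1H2AC, 218 bases apart, both fell (-1.02 and -1.21), as did HIST1H2BJ and HIST1H2AG, 291 bases apart (-0.44 and -0.51). HIST1H2BG and HIST1H2AE, 282 bases apart, were called in opposite directions (-0.60 and 0.70). The difference between them was 1.30 on the log2 scale and was not tested beyond an exact two-sided permutation test of the log ratio, which for 3 libraries against 3 cannot go below 0.1. That value was reached by 4 of the 11 pairs, this one among them. The pair was singled out after its values had been seen, and the HIST1H2AE call depends on single libraries as given above.

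Other pairs were lopsided. HIST2H2BE had 284 counts in shCtrl and 122 in shRBM39, while HIST2H2AC, 322 bases away, had 9 and 23. HIST1H2AM had 54 and 99 counts and HIST1H2BO, 313 bases away, 23 and 11. HIST2H2AC and HIST1H2BO had too few counts for a fit, and these pairs too were singled out after their values had been seen.

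Lower calls were found with and without ATTTGCAT and with and without TATAAA in the promoter, and CCAAT was not split in this way. Of 13 tested members with ATTTGCAT in the promoter 9 fell and 2 rose (median log2 fold change -0.60), and of 20 tested members without it 9 fell and 0 rose (median -0.55). Some of these windows can hold the octamer of a neighbour, as given above. With TATAAA, 10 of 19 tested fell and 2 rose (median -0.51), and without it 8 of 14 fell and 0 rose (median -0.63).

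Histone genes outside the clusters split by type. These replacement and variant genes are read throughout the cell cycle or encode special-purpose histones, and of 13 tested in a list of 21, 7 rose, 3 fell and 3 were not called, with a median log2 fold change of 0.16. This balance depended on the scale: with library totals 4 rose and 5 fell, and on both log2(RPKM) scales 3 rose and 5 fell. In the TMM fit all 3 lower calls were genes named for linker histones. H1F0, which encodes the H1 subtype of resting and differentiated cells, was at 1595, 1721 and 1648 CPM in shCtrl and at 583, 636 and 603 CPM in shRBM39 (-1.45 ± 0.04, adjusted p = 3.14e-25). Per length it was at 736 RPKM in shCtrl and 248 RPKM in shRBM39, above HIST1H1C, the highest of the cluster genes, in both groups. H1FX, another replication-independent H1 gene, was at 260 ± 16.2 CPM against 143 ± 4.83 CPM (-0.86 ± 0.04, adjusted p = 1.48e-18), and HILS1, named for a spermatid linker histone, at 11.8 ± 1.14 against 7.54 ± 0.651 CPM (-0.65 ± 0.10, adjusted p = 6.46e-07).

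Of the 6 H2A variants tested 5 rose, 3 of them (H2AFX, H2AFZ and H2AFV) also with library totals. H2AFX, whose product is phosphorylated at DNA breaks and whose mRNA also carries the stem-loop core (H2AX above), was at 119, 116 and 116 CPM in shCtrl and at 190, 191 and 187 CPM in shRBM39 (0.69 ± 0.04, adjusted p = 2.22e-17). H2AFZ, the gene of variant H2A.Z, was at 65.1 ± 4.04 CPM against 103 ± 3.96 CPM (0.66 ± 0.05, adjusted p = 1.51e-14), and H2AFV, its close relative, had a log2 fold change of 0.27 ± 0.04 (adjusted p = 2.54e-06). CENPA, the centromeric H3, was at 21.99 ± 2.32 against 28.0 ± 2.71 CPM (0.36 ± 0.07, adjusted p = 6.20e-05), a call not made on the log2(RPKM + 1) scale (0.21). The other higher calls of this list were H2AFJ (0.17), H2AFY (0.16) and H3F3A (0.21), none of them called with library totals as the scale (0.042, 0.041 and 0.089), and H2AFJ also not without shCtrl replicate 2 (0.12). H2AFY2, H3F3B and H3F3C were not called, and with library totals H2AFY2 (-0.22) and H3F3B (-0.20) were called lower.

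Genes that make, trim and degrade histone mRNA were called in both directions. Of 25 tested, 14 rose, 2 fell and 9 were not called, while of all genes tested 59.1% were called, 29.2% higher and 29.9% lower. The median log2 fold change of the 25 was 0.18. With library totals as the scale 11 of the 25 rose and 8 fell, and on both log2(RPKM) scales 9 rose and 7 fell. SLBP, the stem-loop binding protein, was at 88.4, 92.2 and 87.9 CPM in shCtrl and at 146, 144 and 152 CPM in shRBM39 (0.72 ± 0.04, adjusted p = 4.99e-17). ERI1, the exonuclease that trims the stem-loop end, was at 19.2, 16.6 and 19.0 CPM against 28.0, 30.8 and 30.8 CPM (0.71 ± 0.07, adjusted p = 2.79e-11). The shRBM39 libraries were above all shCtrl libraries in both. CCNE1 and CDK2, the cyclin E kinase that switches on histone transcription through NPAT, had log2 fold changes of 1.22 ± 0.10 (adjusted p = 2.06e-12) and 0.73 ± 0.04 (adjusted p = 9.34e-18). UPF1, the helicase needed for histone mRNA decay, was at 113 ± 7.55 against 132 ± 2.65 CPM (0.23 ± 0.04, adjusted p = 2.88e-05), and CASP8AP2, a scaffold of the histone locus body, at 28.2 ± 1.70 against 31.8 ± 3.04 CPM (0.18 ± 0.06, adjusted p = 0.0152). The CASP8AP2 call was lost with library totals as the scale (0.06), and without shCtrl replicate 2 (0.16), shCtrl replicate 3 (0.15) or shRBM39 replicate 1 (0.10). On the log2(RPKM + 1) scale UPF1 was not called (0.10).

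The histone-specific activator and the U7 particle were not called. NPAT, the coactivator of histone transcription, was at 11.1 ± 0.885 CPM in shCtrl and 9.98 ± 0.293 CPM in shRBM39 (-0.15 ± 0.09, adjusted p = 0.156). LSM10 and LSM11, the 2 proteins particular to the U7 particle that directs 3′ cleavage, had log2 fold changes of -0.11 ± 0.09 (adjusted p = 0.268) and -0.07 ± 0.16 (adjusted p = 0.721), and ZNF473, a zinc finger protein of the same particle, of -0.19 ± 0.09 (adjusted p = 0.0640). Their groups overlapped. With library totals as the scale NPAT (-0.27), LSM10 (-0.24) and ZNF473 (-0.31) were called lower, and ZNF473 also without shRBM39 replicate 2 (-0.27). LSM11 changed sign without shCtrl replicate 2 (0.074) and without shRBM39 replicate 2 (0.040). The 2 genes that fell were NCBP1, of the nuclear cap-binding complex (-0.31 ± 0.05, adjusted p = 7.20e-06), and ZCCHC11, which adds uridines to histone mRNA before decay (-0.24 ± 0.05, adjusted p = 0.000281). The ZCCHC11 call was lost with the correction for gene length and GC content (-0.079, adjusted p = 0.189).

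Histone chaperones and S phase genes, which act when histones are laid onto new DNA, were higher. Of 19 chaperone and assembly genes 15 rose, 3 fell and 1 was not called, with a median log2 fold change of 0.41. ASF1B, which hands over new H3 and H4, was at 18.9 ± 0.944 against 35.3 ± 1.65 CPM (0.90 ± 0.06, adjusted p = 1.02e-14), and CHAF1A, of the replication-coupled assembly factor, at 179 ± 3.09 against 331 ± 16.6 CPM (0.88 ± 0.04, adjusted p = 1.15e-19). HAT1, which acetylates new H4, had a log2 fold change of 0.89 ± 0.06, and SUPT16H, a subunit of FACT, of 0.82 ± 0.04. ATRX (-0.38 ± 0.04), NAP1L1 (-0.34 ± 0.04) and UBN1 (-0.12 ± 0.04) fell. The UBN1 call was lost with the correction for gene length and GC content (-0.029, adjusted p = 0.563), with DESeq2 (-0.11, adjusted p = 0.0779), and without shCtrl replicate 2 (-0.11), shCtrl replicate 3 (-0.11), shRBM39 replicate 2 (-0.10) or shRBM39 replicate 3 (-0.08).

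Of 24 S phase genes, 23 rose and CDT1 was not called (-0.03 ± 0.05, adjusted p = 0.649), with a median log2 fold change of 1.002. SLBP and CCNE1 stand in both this list and the processing list. MCM6, of the replicative helicase, was at 49.3, 51.2 and 50.9 CPM in shCtrl and at 178, 179 and 190 CPM in shRBM39 (1.85 ± 0.04, adjusted p = 1.50e-27). MCM5 (1.34 ± 0.04), GINS2 (1.27 ± 0.06) and FEN1 (1.25 ± 0.04), which work at the replication fork, followed. The histone cluster genes, with 18 of 36 lower, and the S phase genes, with 23 of 24 higher, had medians of opposite sign in the same libraries, as the plot of the lists shows.

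**Figure D5:**
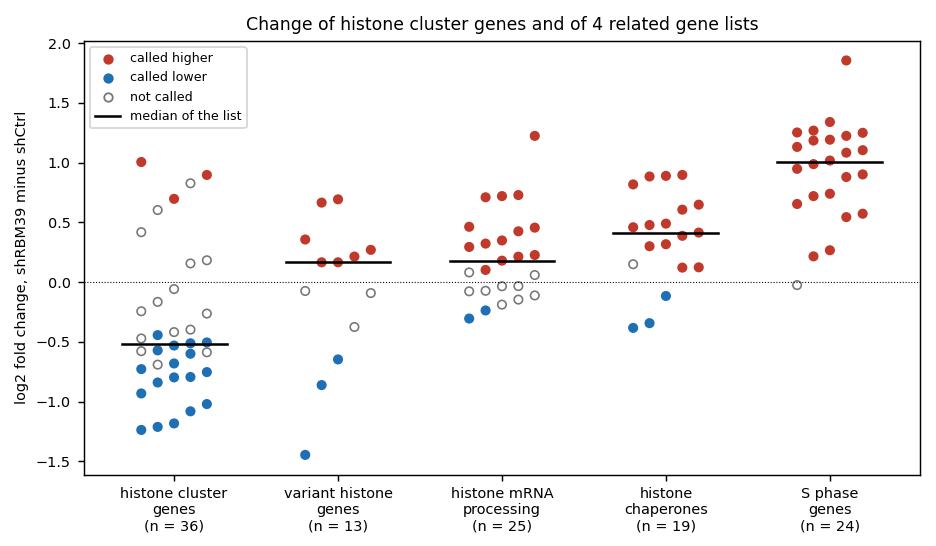
Log2 fold change (shRBM39 minus shCtrl) of each tested gene in the histone cluster and in 4 related gene lists, coloured red where called higher, blue where called lower and open where not called, with a bar at the median of each list. The medians run from -0.52 for the 36 histone cluster genes to 1.002 for the 24 S phase genes.

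The deposited splicing records were searched for the same genes. They held 0 records for the 76 histone cluster genes and 0 for the variant histone and S phase genes. Most cluster genes, such as HIST1H1C, have a model of 1 exon, which cannot give a record of a skipped exon. The chaperone genes had 5 records, of DAXX, CHAF1A and NAP1L4, and the processing genes 1, of CELF1. The records name their sides group 1 and group 2 without saying which is the knockdown, so no direction is given here.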

How the data were processed

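Raw counts for each gene symbol were deposited by the authors for 3 shCtrl and 3 shRBM39 libraries of SW480 mRNA, prepared with a stranded kit that uses unique identifiers. The columns headed NC were taken to be shCtrl, since the series has no other control. The submitters' processing notes name Trimmomatic 0.36, STAR 2.5.3a, featureCounts of Subread 1.5.1, edgeR 3.12.1 and GRCh38, without their roles. The annotation release, the strand setting, the treatment of reads that map to several places or overlap several genes and the collapsing of identifiers are not given in the sources used here, and these choices bear most on near-identical and overlapping histone genes. The authors also deposited RPKM values, which follow from the counts to within rounding and add no measurement. A deposited splicing table holds p-value and inclusion columns with the authors' own comparison, of which the number of records per gene alone was used.

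The test was that of edgeR 4.0.16, run in R 4.3.3. Genes were kept by filterByExpr (about 0.503 CPM in at least 3 libraries), scaled by TMM and fitted with a quasi-likelihood model with group as the term. P-values were adjusted by the Benjamini-Hochberg method over all 18243 genes tested, called at 0.05, and CPM refers to TMM-scaled library sizes. The SE of a fold change is its fitted size on the log2 scale divided by the root of its F value. The count-table exons, GENCODE v44 stop codons and the GRCh38 sequence gave the stem-loop search, and RefSeq (GRCh38.p14) the promoters. Within-group libraries differed by more than counting noise, so each was used as 1 replicate. The members, the gene lists and the tests were chosen with earlier results of these data known. Values in each library are given for called members and for the 10 members of highest mean RPKM, and of each list NPAT, CASP8AP2, SLBP, LSM10, LSM11, ZNF473, ERI1, UPF1 and up to 4 called genes of largest change in each direction are named. Alternatives were library totals, DESeq2 1.42.0, no filter, at least 10 counts in every library, limma 3.58.1 on log2(RPKM + 1) and log2(RPKM + 0.1), a block for the replicate number, a correction for gene length and GC content, an adjusted p under 0.01 and each library left out in turn.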

Additional observations from a re-analysis of the deposited data

How the results depend on the processing

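The count of histone cluster genes called stayed between 15 and 25 under every alternative run, against 21 in the reported fit. It was 15 with DESeq2, 16 at an adjusted p under 0.01, 21 with library totals, 23 without a filter and 25 on both RPKM scales. Leaving out 1 library gave 18 to 20 called members, of which 13 to 18 were lower and 2 to 5 higher. The 5 higher calls came without shCtrl replicate 2 and without shRBM39 replicate 1, where HIST1H1B and HIST1H2AJ joined. Of the 18 lower calls 11 and of the 3 higher calls 2 held under all alternatives in which they were tested. HIST1H2BC, 1 of the 11, had 7 counts in shRBM39 replicate 2 and dropped out at 10 or more counts in every library. HIST1H2BG was lost with DESeq2 alone. With each library left out in turn, 3 uncalled genes changed sign: HIST2H2AA4 ran from -0.27 to 0.27 (the latter without shRBM39 replicate 1), HIST1H3G from -0.00498 (without shCtrl replicate 3) to 0.67, and LSM11 from -0.19 to 0.074 (without shCtrl replicate 2), with 0.040 without shRBM39 replicate 2.

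Across all genes, the median log2 fold change was -0.01 with TMM and -0.14 with library totals. Calls were 5327 higher and 5463 lower in the reported fit and 3775 higher and 7371 lower with library totals, and HIST1H2AE was lost there. With the replicate number as a block, 20 members were called, 3 higher and 17 lower. The numbers do not pair the samples: deviations of same-numbered libraries correlated at 0.00612, -0.0282 and 0.000114. The causes of these shifts were not tested. Depth limits the 40 members that were not tested, each with 54 or fewer counts in all libraries together.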
